A study of Mus musculus with 4 samples.

Results

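The cells described here are cycling macrophages of an 8-day lung organoid culture. Members were chosen by measured UMIs (unique molecular identifiers, counts of single mRNA molecules). The day 8 library held 11390 barcodes, of which 7893 showed 500 or more genes with no more than 15% of UMIs from mitochondria. Of these, 6732 gave at least 0.1% of their UMIs to the myeloid genes Tyrobp, Fcer1g and C1qb together. Removing 280 cells with a UMI of Epcam and 12 with at least 2% of UMIs from Sftpc left 6440 gated macrophages. The 2588 gated cells with 5 or more UMIs of Mki67, Top2a, Ube2c, Birc5, Cdk1 and Cenpf together are called cycling. They were 40.2% of the gated cells (exact Clopper-Pearson 95% interval 39.0 to 41.4%), and the whole series held 33732 cells past the same filter. The 2343 gated cells with 0 or 1 such UMI are called non-cycling and serve as the comparison, and 1509 cells with 2 to 4 UMIs lay between.

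The study followed cells of Gramd2creERT2;mTmG mice, in which a Cre driven by Gramd2, an alveolar type I cell gene, switches a tdTomato reporter to EGFP. Sorted GFP-positive lung cells were profiled at day 0. Organoids grown from such cells with MLg fibroblasts, an established line from mouse lung, in growth factor-reduced Matrigel with SB 431542, an inhibitor of TGF-beta receptors, were profiled at days 8, 13 and 20 after EpCAM bead enrichment. Each day had 1 droplet library made with a 3' kit, and the number of mice behind it is not given in the sources used here. Both sets of day 8 cells share this genotype, culture and library, and were separated by the count of the 6 cell cycle genes alone. With 1 library there is no replicate, so no p-value is given, and every 95% interval covers counting error only.

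A dividing cell licenses its replication origins in G1 with MCM helicases, copies its DNA in S phase with polymerases fed by nucleotide enzymes, and separates its chromosomes in mitosis with a microtubule spindle. Cyclins bound to cyclin-dependent kinases drive these steps, and the proteins of the later phases are made shortly before they are used. Macrophages of the lung can divide locally without new monocytes, under the growth factors CSF1 and GM-CSF, while keeping their macrophage identity.

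The label names the cells alveolar epithelial, and the gated cells did not carry that profile. A median of 12 of 13 macrophage marker genes outside the gate had a UMI in a cycling cell, and 97.4% of cycling and 90.8% of non-cycling cells had at least 10 of them. These counts used all UMIs of cells that differ in depth, and were not made for other cell types. Lyz2, a lysozyme gene read in other cells here too, stood at 11505 CPM (its UMIs scaled to a common total per set) in cycling macrophages. It stood at 2592 CPM in cycling Epcam-positive cells and 190 CPM in 7 cycling cells rich in fibroblast genes of the same library. Tyrobp, a signalling adaptor of myeloid cells and a gate gene, stood at 1569, 29.8 and 6.35 CPM in the same 3 sets. EGFP, the mark of the sorted lineage, was at 9.84 CPM in cycling and 10.7 CPM in non-cycling macrophages, against 118 CPM in cycling Epcam-positive cells, and tdTomato was at 101, 106 and 139 CPM. The Tyrobp values follow from the gate and add no support. By the markers outside the gate both sets carried a macrophage profile, with EGFP far under the level of the Epcam-positive cells.

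Depth differed between the sets, and the rule itself counts UMIs. Cycling cells had a median of 20275 UMIs and 4259 genes, against 14541 UMIs and 3366 genes in non-cycling cells, a depth ratio of 1.39. The median mitochondrial share was 3.35% in cycling and 3.49% in non-cycling cells. Genes of other cell types were low in both sets. The neutrophil list summed to 50.2 CPM in cycling and 77.9 CPM in non-cycling cells, with Elane, Mpo, Ngp and S100a9 at 0. The T and NK list summed to 1.45 and 2.33 CPM, the dendritic list to 6.62 and 8.54 CPM, the endothelial list to 7.66 and 5.12 CPM, and the B cell list to 76.8 and 98.5 CPM, of which Ighm gave 74.7 and 95.9 CPM. The fibroblast list summed to 152 CPM in cycling and 109 CPM in non-cycling cells, and 2.36% and 1.62% of the cells gave it at least 0.1% of their UMIs. Sftpc, a type II cell surfactant gene, had a UMI in 99.3% of cycling and 98.8% of non-cycling cells, at 289 and 401 CPM. Thinned to 5000 UMIs, it had one in 73.6% of cycling and 82.2% of non-cycling cells, and in 88.7% of 141 fibroblast-gene cells (at least 1% of UMIs from the fibroblast list, median depth 15972 UMIs), a type that should lack it. Day 8 shared 41, 40 and 32 barcodes with days 0, 13 and 20, among them 9, 6 and 7 cycling macrophages. A doublet score at the expected rate marked 14.8% of cycling and 4.14% of non-cycling cells, which were kept; without them 310 genes were higher and 43 lower by the rule given below.

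The rule genes describe the choice and support nothing. Cycling cells held a median of 20 UMIs of the 6 genes (quartiles 10 and 48, at most 239), and non-cycling cells a median of 0. Mki67, a coat protein of mitotic chromosomes, was at 339 CPM in cycling and 7.42 CPM in non-cycling cells. Top2a, which untangles DNA, was at 272 and 3.65 CPM, and Ube2c, which hands ubiquitin to targets of the anaphase complex, at 287 and 6.83 CPM. The counts of cells fell off without a gap at the threshold, as the plot of cells by UMIs of the 6 genes shows. The 306 cells with 4 UMIs, just outside, had 1711 CPM of S phase genes and 717 CPM of mitotic genes, and the 184 cells with 5 UMIs, just inside, had 1978 and 848 CPM. The class is therefore a range of a count, and no clustering was run.

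**Figure D1:**
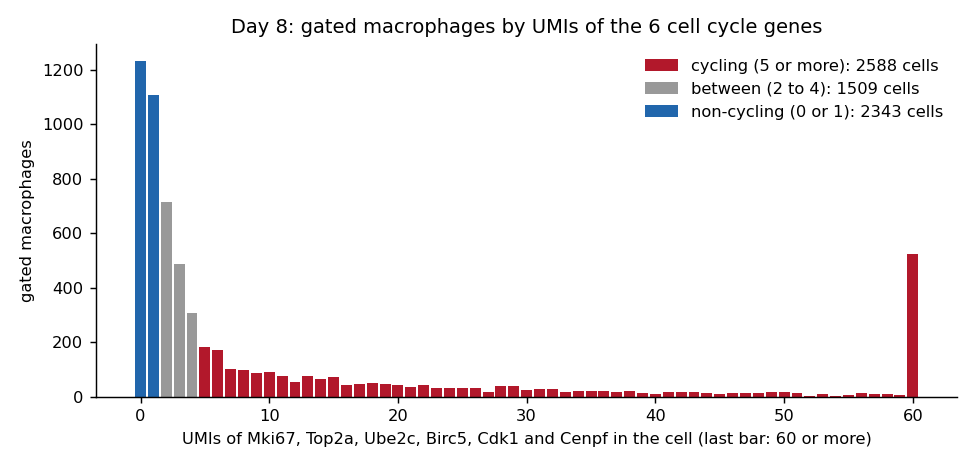
Number of day 8 gated macrophages (y axis) by their UMIs of Mki67, Top2a, Ube2c, Birc5, Cdk1 and Cenpf together (x axis, last bar 60 or more). The 2588 cycling cells start at 5 UMIs, 524 of them hold 60 or more, and no gap separates them from the 1509 cells between and the 2343 non-cycling cells.

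Genes were compared by summing UMIs over each set, as CPM. A gene with at least 20 CPM in either set was called higher or lower in cycling cells when its ratio was at least 2-fold and the exact conditional Poisson interval excluded 1. Of 5690 genes, 293 (5.15%) were higher and 41 (0.721%) lower, with a median log2 ratio of 0.08 over all genes. Since the cells were chosen for cell cycle RNA, these calls are a description of what came with the 6 genes. Of 144 genes in the cell cycle lists, 131 were higher and 1 lower, and of 5546 genes in none of them, 162 were higher and 40 lower. The higher genes thus lay both inside and outside the lists, and all but 1 of the lower genes lay outside. The lists do not hold every cell cycle gene. H2ac24, a core histone, and Pclaf, a partner of Pcna, were higher and lay outside them, so a gene outside the lists can still be a cell cycle gene.

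Replication licensing, the earliest step, was higher in 13 of 19 genes and lower in none, with a median log2 ratio of 1.81. Mcm5, a subunit of the replicative helicase, was at 80.6 CPM in cycling and 16.6 CPM in non-cycling cells (log2 ratio 2.28, interval 2.15 to 2.41). Mcm7 of the same ring was at 76.7 and 15.2 CPM, and Mcm10, which helps to start the helicase, at 21.6 and 2.15 CPM. Chaf1a, a chaperone that sets histones on new DNA, was at 41.3 and 10.2 CPM. In these 4 genes the ratio was at least 4-fold.

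DNA synthesis genes were higher in 23 of 25, with a median log2 ratio of 2.13 and none lower. Rrm2, the ribonucleotide reductase subunit that limits deoxynucleotide supply, was at 77.1 CPM in cycling and 3.44 CPM in non-cycling cells, and Tk1, which salvages thymidine, at 100 and 6.98 CPM. Tyms, which makes thymidylate, was at 137 and 15.7 CPM (log2 ratio 3.12, interval 2.99 to 3.25). Pcna, the sliding clamp of the polymerases, was at 385 and 176 CPM (log2 ratio 1.13), so it was well expressed in both sets and among the members of its list with the smaller ratios. Its partner Pclaf was at 303 and 17.7 CPM (log2 ratio 4.10).

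Mitotic and spindle genes had the highest medians among the lists outside the rule. Of 22 mitotic regulators 20 were higher, with a median log2 ratio of 4.31, and of 32 spindle and kinetochore genes 31 were higher, with a median of 4.36. Ccnb1, the cyclin of mitotic entry, was at 87.5 CPM in cycling and 4.15 CPM in non-cycling cells (log2 ratio 4.40, interval 4.16 to 4.65). Plk1, a kinase of mitotic entry, was at 50.3 and 1.12 CPM, and Cdc20, the activator of the anaphase complex, at 68.1 and 2.33 CPM. Among spindle genes, Prc1, which bundles midzone microtubules, was at 122 and 2.56 CPM, and Kif11, the motor that parts the poles, at 57.5 and 1.21 CPM. Nusap1, a spindle-binding protein, was at 102 and 1.35 CPM (log2 ratio 6.24). These genes were near 0 in non-cycling cells, so their ratios rest on few UMIs there, such as 41 UMIs of Kif11.

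Chromatin, histone and tubulin genes followed. All 18 chromatin and condensation genes with at least 5 CPM were higher, among them Ncapg and Ncapd2 of condensin and Lmnb1 of the nuclear lamina, which was at 112 CPM in cycling and 8.12 CPM in non-cycling cells. Of 9 histone genes 7 were higher. H1f5, a linker histone, was at 416 and 5.39 CPM (log2 ratio 6.27), and H2ac24, a core histone outside the list, at 404 and 8.33 CPM (log2 ratio 5.60). Histone copies are near identical in sequence, so the split of reads between them is uncertain. Of 10 genes in the tubulin and microtubule list 8 were higher, with Tubb5 at 964 and 264 CPM and Tuba1b at 1095 and 337 CPM. The list's genes of actin-binding proteins, Cfl1 and Tmsb4x, were not called (log2 ratios 0.06 and -0.11).

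**Figure D2:**
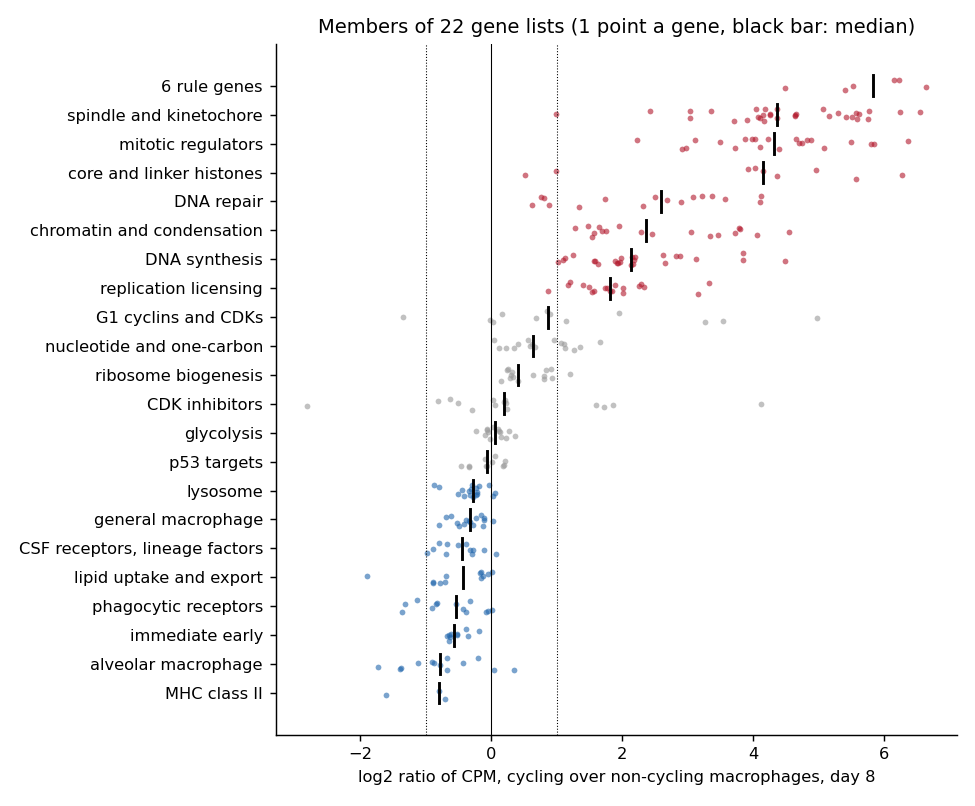
Log2 ratio of CPM, cycling over non-cycling macrophages of day 8 (x axis), for each gene with at least 5 CPM in 22 lists (rows), with the median as a black bar and dotted lines at 2-fold. Spindle and mitotic lists have medians of 4.36 and 4.31, licensing 1.81, glycolysis 0.06, and the alveolar macrophage and MHC class II lists -0.79.

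The upstream regions of some of these genes show letters known to mark cell cycle promoters. The box CCAAT is bound by NF-Y, TTTGAA is the core of the element that holds mitotic genes silent in resting cells, and TTTCCCGC and TTTGGCGC are forms of the E2F site of S phase genes. The 100 bases before the start site are given 5′ to 3′ on the gene's strand for 4 mitotic and 2 S phase genes, picked after their values and sequences were seen because they hold the letters clearly. Capitals mark a match on either strand. The sequences are RefSeq promoters on GRCm38.p6.
Top2a: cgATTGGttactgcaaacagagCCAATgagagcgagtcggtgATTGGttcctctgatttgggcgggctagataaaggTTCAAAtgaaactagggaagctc
Ube2c: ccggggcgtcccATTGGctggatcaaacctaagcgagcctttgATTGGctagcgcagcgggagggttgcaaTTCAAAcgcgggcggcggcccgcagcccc
Cdc20: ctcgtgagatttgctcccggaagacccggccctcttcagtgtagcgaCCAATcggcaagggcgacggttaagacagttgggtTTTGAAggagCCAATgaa
Kif11: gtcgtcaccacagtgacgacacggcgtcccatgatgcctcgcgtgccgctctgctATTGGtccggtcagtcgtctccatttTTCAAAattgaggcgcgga
Mcm6: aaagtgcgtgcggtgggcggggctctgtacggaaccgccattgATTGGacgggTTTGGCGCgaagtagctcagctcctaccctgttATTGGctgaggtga
Hells: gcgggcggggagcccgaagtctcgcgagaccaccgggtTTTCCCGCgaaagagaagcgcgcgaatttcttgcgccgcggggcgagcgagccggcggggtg

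These stretches lie at chr11:99024190-99024289 (minus strand) for Top2a, chr2:164769829-164769928 (plus) for Ube2c and chr4:118437344-118437443 (minus) for Cdc20. They lie at chr19:37376282-37376381 (plus) for Kif11, chr1:128359706-128359805 (minus) for Mcm6 and chr19:38930890-38930989 (plus) for Hells. Over windows from 250 bases before to 50 after the start, searched on both strands, TTTGAA was in 29 of 45 mitotic and spindle genes with a RefSeq promoter (64.4%), of 54 in the lists. It was in 4 of 35 licensing and synthesis genes (11.4%), of 44 in the lists, and in 14.5% of 15703 genes of the files with a promoter. CCAAT was in 32 of 45 mitotic genes (71.1%), in 22 of 35 S phase genes (62.9%) and in 39.0% of all. TTTCCCGC was in 0 of 45 mitotic, 6 of 35 S phase genes and 1.58% of all, and TTTGGCGC in 1 of 45, 5 of 35 and 0.72%. Both TTTGAA and CCAAT stood in 23 of 45 mitotic genes, 3 of 35 S phase genes and 6.09% of all. Of the 40 lower genes outside the cell cycle lists, 27 had a promoter, of which 3 held TTTGAA and 11 CCAAT. A match is a description of letters and names no bound site.

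The members differed among themselves in phase. After every cell was thinned to 5000 UMIs, which left 2546 cycling cells, the 44 genes of the licensing and synthesis lists gave 28.2 UMIs per 10000 in cycling cells, 12.9 in the cells between and 8.61 in non-cycling cells. The 54 genes of the mitotic and spindle lists gave 41.9, 5.92 and 4.22 UMIs per 10000 in the same order. A cycling cell held a median of 10 S phase UMIs (10th to 90th percentile 3 to 31) and 17 mitotic UMIs (4 to 44). In 1617 cells (63.5%) mitotic UMIs outnumbered S phase UMIs, in 875 (34.4%) the reverse held, and in 54 they were equal. At least 5 UMIs of both groups were in 1826 cells (71.7%), S phase alone reached 5 in 259 cells and mitosis alone in 362. The 6 rule genes are mostly made in G2 and mitosis, so these shares depend on the choice of cells, and no phase call was made from them.

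**Figure D3:**
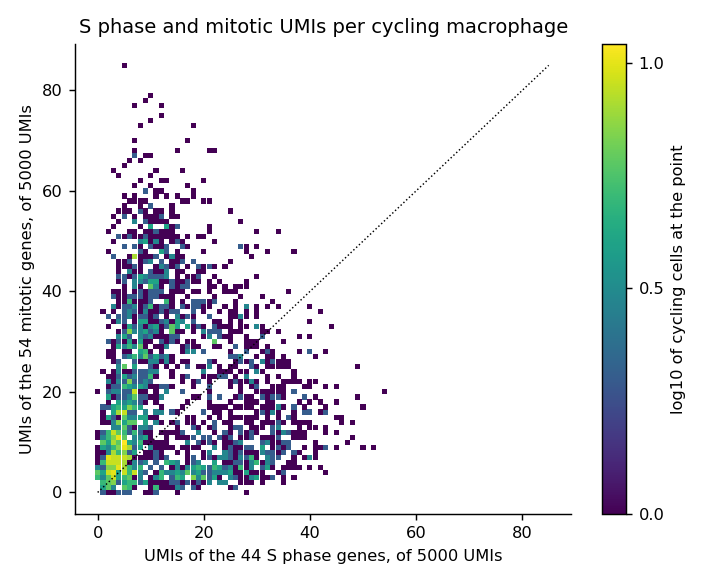
UMIs of the 44 S phase genes (x axis) and of the 54 mitotic genes (y axis) in 2546 cycling macrophages thinned to 5000 UMIs, coloured by the log10 number of cells at a point. One arm runs up the mitotic axis and one along the S phase axis, with 1617 cells above the dotted line of equality and 875 below it.

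Members were also split by genes of mitosis that the rule did not use, Ccnb1, Cdc20, Plk1 and Aurka, after the data were seen. The cells without them were not chosen for S phase genes, so the 2 sets are not the 2 arms. In 1091 members these genes took at least 2 per 10000 UMIs, and in 622 they were absent. Of 5753 genes, 207 were higher and 10 lower in the first set. The 207 include Ccnb1, Cdc20, Plk1 and Aurka, whose values the split fixed, so the count is a description. Tyms was at 171 CPM in cells with mitosis genes and 74.6 CPM in cells without (log2 ratio 1.20), while Mcm5 was at 64.8 and 68.7 CPM and Pcna at 349 and 326 CPM. Mcm6, a helicase subunit, was at 53.2 and 85.6 CPM (log2 ratio -0.68). Ccnd1, the cyclin that answers growth factors in G1, was at 247 and 402 CPM (log2 ratio -0.70), and Mxd4, a partner of Max that opposes Myc, was lower at 27.5 and 56.1 CPM. Macrophage genes went both ways with no call, with log2 ratios of 0.22 for Marco, 0.13 for Arg1, -0.11 for Lyz2, -0.42 for Csf1r, -0.59 for C1qa and -0.57 for Lpl. The cells with mitosis genes had a median depth of 19822 UMIs, against 18294 UMIs in cells without.

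Regulators of the G1 phase had a median log2 ratio of 0.87, under those of the licensing, synthesis and mitotic lists. Of 12 G1 cyclins, kinases and E2F factors, 2 were higher and 1 lower. E2f7, Ccne2 and E2f2 had log2 ratios of 4.97, 3.26 and 1.15 but lay under the 20 CPM that a call needs. Ccne1, the cyclin of S phase entry, was at 20.9 CPM in cycling and 5.42 CPM in non-cycling cells, and E2f8, an atypical E2F repressor, at 20.9 and 1.80 CPM. Ccnd1 was at 327 and 292 CPM (log2 ratio 0.16) and Ccnd3 at 39.1 and 38.2 CPM (0.03). Ccnd2, the other D cyclin, was lower, at 36.4 and 92.5 CPM (log2 ratio -1.35), though weighting the non-cycling cells to the depths of the cycling ones moved it to -0.97 and ended the call. Of the 3 D cyclins, Ccnd2 alone met the 2-fold rule, before depth weighting.

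Inhibitors of cyclin-dependent kinases did not move as 1 group. Of 15 genes, 4 were higher and none lower, with a median log2 ratio of 0.20. Cdkn3, a phosphatase of Cdk1 and Cdk2, was at 87.6 CPM in cycling and 5.03 CPM in non-cycling cells. Cdkn2c and Cdkn2d, inhibitors of Cdk4 and Cdk6, were at 64.2 and 17.7 CPM and at 109 and 36.2 CPM, and Rbl1, a pocket protein, at 25.7 and 7.80 CPM. The stress and quiescence inhibitors Cdkn1a and Cdkn1b were not called, at 332 and 288 CPM and at 27.5 and 23.9 CPM. Cdkn2a was at 32.6 and 57.1 CPM (log2 ratio -0.81), and Cdkn1c, under the 20 CPM minimum, at 1.47 and 10.3 CPM. None of 11 p53 target genes was called.

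Among factors tied to self-renewal, Ezh2, the methyltransferase of the Polycomb complex, was higher, at 70.4 CPM in cycling and 13.2 CPM in non-cycling cells (log2 ratio 2.42, interval 2.28 to 2.56). Bhlhe40, a repressor needed for division of mouse tissue macrophages, was lower, at 12.3 and 27.5 CPM, a call that depth weighting ended (log2 ratio -0.85). Maf, a factor of macrophage identity, was at 432 and 422 CPM (0.04) and was not called. Myc was at 16.1 and 19.1 CPM, Klf4 at 65.0 and 109 CPM and Klf2 at 133 and 182 CPM, with no call. So of 9 genes in this list 1 was higher and 1 lower.

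Growth support genes were higher by less than the cell cycle lists. Of 15 ribosome biogenesis and translation genes 1 was called, Ranbp1 of nuclear transport, at 344 CPM in cycling and 150 CPM in non-cycling cells, while 7 were higher by 1.5-fold. Over all genes 10% were higher and 3.11% lower by 1.5-fold. Of 16 nucleotide and one-carbon genes 3 were called, the serine and folate enzymes Shmt2 and Mthfd2 and the guanine nucleotide enzyme Impdh2 (log2 ratios 1.36, 1.10 and 1.27). Glycolysis (14 genes), hypoxia response (11), cholesterol synthesis (13) and oxidative phosphorylation (13) had no call, with medians of 0.06, 0.06, 0.04 and 0.09. Of DNA repair genes 3 of 16 were higher, among them Topbp1 of the replication checkpoint. That list's median was 2.60, and most of its members lay under the 20 CPM that a call needs.

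The macrophage genes of cycling cells lay mostly at or a little under those of non-cycling cells as a share of RNA. None of 16 general macrophage genes was called, with a median log2 ratio of -0.33. Lyz2 was at 11505 CPM in cycling and 18650 CPM in non-cycling cells (log2 ratio -0.70), and Csf1r, the CSF1 receptor, at 239 and 312 CPM (-0.38). Counted per cell, Lyz2 gave 255 UMIs in a cycling and 270 UMIs in a non-cycling cell, and the general list 500 and 475 UMIs, beside 22136 and 14499 UMIs of all genes. A cycling cell thus held about as many UMIs of Lyz2 and of the general list, which includes Lyz2, among more UMIs in all. Other lists differed per cell. The interstitial list gave 151 and 105 UMIs, the lipid-associated list 599 and 480, the alveolar list 64.1 and 58.5 and the MHC class II list 2.29 and 2.93. Csf2rb, the shared chain of the GM-CSF receptor, was at 54.4 and 87.5 CPM (-0.69), and its partner Csf2ra at 117 and 145 CPM (-0.30). The factor Spi1, which sets the myeloid lineage, was at 345 and 372 CPM (-0.11).

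Alveolar macrophage genes were lower in 3 of 13, with a median log2 ratio of -0.79, and Car4 was at 0 in both sets. Ear2, a ribonuclease of alveolar macrophages, was at 33.9 CPM in cycling and 112 CPM in non-cycling cells (log2 ratio -1.73, interval -1.81 to -1.65). Atp6v0d2, a subunit of the lysosomal proton pump, was at 54.2 and 142 CPM (-1.39), and Plet1, a surface protein, at 8.99 and 23.3 CPM (-1.37). Depth moves with these values. Weighting the non-cycling cells to the depths of the cycling ones gave -0.91 for Ear2 and -0.62 for Plet1, ending both calls, and -1.20 for Atp6v0d2, which remained. Marco, a scavenger receptor, was at 1121 and 1517 CPM (-0.44), and Itgax, the integrin CD11c, at 21.7 and 40.7 CPM (-0.91), neither called.

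Values within ranges of depth, chosen after the data were seen, show how these genes moved. Among cells of 5000 to 10000 UMIs Ear2 was at 48.2 CPM in 126 cycling and 224 CPM in 287 non-cycling cells, and among cells of 20000 to 30000 UMIs at 32.7 CPM in 874 cycling and 49.8 CPM in 334 non-cycling cells. Its log2 ratio was -2.22, -1.31, -1.03 and -0.61 from the shallowest range to the deepest. Atp6v0d2 had -1.67, -1.13, -1.71 and -1.05 in the same 4 ranges, and Mgll, a lipase of monoacylglycerol, -1.61, -1.32, -1.89 and -1.60. Ear2 thus came closer between the sets in deeper cells, and Mgll did not. Within the 15000 to 20000 range, 243 genes were higher and 30 lower. After thinning to 5000 UMIs, Ear2 had a UMI in 8.64% of cycling and 20.6% of non-cycling cells, against 0.709% of 141 fibroblast-gene cells.

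Other lower genes included a few of lipid handling, uptake and antigen presentation. In the lipid uptake and export list 1 of 12 genes was lower, Apoe. Apoe, a lipid carrier, was at 16.7 CPM in cycling and 62.1 CPM in non-cycling cells (log2 ratio -1.89), and had a UMI in 4.05% and 6.52% of thinned cells, against 22.7% of fibroblast-gene cells. The thinned shares of Axl (9.98% of cycling and 20.3% of non-cycling cells), Ccnd2 (11.3 and 24.7%) and Mxd4 (16.8 and 33.5%) also lay under those of the 141 fibroblast-gene cells, of which 45 held a UMI of Axl, 62 of Ccnd2 and 62 of Mxd4. Whether RNA from other cells has a part in these 4 genes was not tested. Mgll was at 23.4 and 77.0 CPM (-1.72). H2-DMa, which loads peptides on MHC class II, was at 19.2 and 58.1 CPM (-1.60), and the invariant chain gene Cd74 at 57.8 and 100 CPM (-0.79), so the 3 measured class II genes included 1 call. Of 13 phagocytic receptor genes 3 were lower, with Clec7a, a receptor for fungal glucan, at 47.4 and 122 CPM, Axl, a receptor for dying cells, at 28.8 and 71.8 CPM and Fcgr4, an antibody receptor, at 38.2 and 83.7 CPM. Ms4a7 of the interstitial list was at 31.1 and 72.9 CPM, and of that list 2 of 12 genes were lower, Ms4a7 and Apoe.

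Of the 41 lower genes, 11 stayed lower after depth weighting, namely Acp5, Apoe, Atp6v0d2, Ctsf, Gngt2, H2-DMa, Mgll, Ms4a7, Mxd4, Pla2g7 and Tcp11l2, and all 41 kept their sign. Their median log2 ratio was -1.26 before and -0.89 after weighting, and 19 genes in all were then called lower. The calls new under weighting included the fibroblast gene Dcn (-1.23), C3 (-1.50) and Ccl8 (-1.18). Apoe and Ms4a7 moved further down, to -2.16 and -1.46, and the cause was not tested. The calls of Clec7a (-0.83), Axl (-0.82), Fcgr4 (-0.94), F10 (-0.83), Cd300c2 (-0.91), Slpi (-0.99), Ccn3 (-0.90), Ifitm6 (-0.89) and Il18 (-0.64) ended. Mxd4 was at 37.4 CPM in cycling and 85.8 CPM in non-cycling cells (log2 ratio -1.20), and -1.04 after weighting. By comparison, 281 of the 293 higher genes were called again. The higher set thus changed little with depth and the lower set lost most of its calls.

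The secreted and enzyme genes among the lower ones included Slpi, a protease inhibitor, at 197 CPM in cycling and 454 CPM in non-cycling cells. Ccn3, a matricellular protein, was at 221 and 497 CPM, F10, clotting factor X, at 51.7 and 133 CPM, and Il18, a cytokine, at 74.3 and 154 CPM. Gngt2, a G protein subunit, was at 20.4 and 55.6 CPM, and Cd300c2, a myeloid surface receptor, at 21.9 and 53.2 CPM. Ifitm6, a membrane protein of myeloid cells, was at 31.2 and 68.7 CPM. These 7 genes were each between 2-fold and 3-fold lower.

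Most other macrophage programs had no call in either direction. None of 18 lysosome, 12 lipid-associated macrophage, 13 interferon response, 9 complement, 12 chemokine, 9 growth factor, 10 NRF2 target and 7 monocyte genes passed 2-fold before depth weighting. After it the chemokine gene Ccl8 (log2 ratio -0.39 before and -1.18 after) and the complement gene C3 (-0.61 and -1.50) were called lower. Ccl12, a chemokine for monocytes, was at 486 CPM in cycling and 277 CPM in non-cycling cells (log2 ratio 0.81), and Ccl6, another chemokine, at 1466 and 2691 CPM (-0.88). Arg1, an arginase of alternative activation, was at 187 and 273 CPM (-0.54). The 10 immediate early genes had no call, but 5 were lower by 1.5-fold, with Fos at 308 and 479 CPM. The monocyte list summed to 148 and 169 CPM.

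Across bands of the 6 genes the lists moved step by step. The 5 bands of 0 to 1, 2 to 4, 5 to 9, 10 to 19 and 20 or more UMIs held 2343, 1509, 644, 623 and 1321 cells. Licensing genes summed to 301, 495, 808, 966 and 1002 CPM, so they neared their top by the 10 to 19 band, while mitotic regulators went on climbing through 105, 178, 388, 820 and 1986 CPM. Mcm5 had 16.6, 35.5, 64.6, 83.6 and 85.4 CPM, and Ccnb1 4.15, 5.07, 13.9, 42.3 and 132 CPM. Cells with 2 to 4 UMIs therefore already carried more licensing RNA than the lowest band.

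The general, alveolar and MHC class II lists were highest in the lowest band, while interstitial macrophage genes summed to 7257, 7764, 7765, 7189 and 6310 CPM. General macrophage genes summed to 32728, 27865, 24592, 23372 and 21591 CPM, and MHC class II genes to 202, 137, 114, 116 and 94.8 CPM. Alveolar macrophage genes summed to 4036, 3224, 3004, 3036 and 2805 CPM, and Ear2 alone to 112, 57.4, 34.4, 28.8 and 35.5 CPM. Most of the difference in Ear2 lay below the 5 to 9 band. Mxd4 instead went on falling, with 85.8, 77.0, 58.4, 40.4 and 28.4 CPM. Median depth was 14541, 16745, 18167, 18205 and 22679 UMIs, so depth moved with the bands too, and its part was not tested there.

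**Figure D4:**
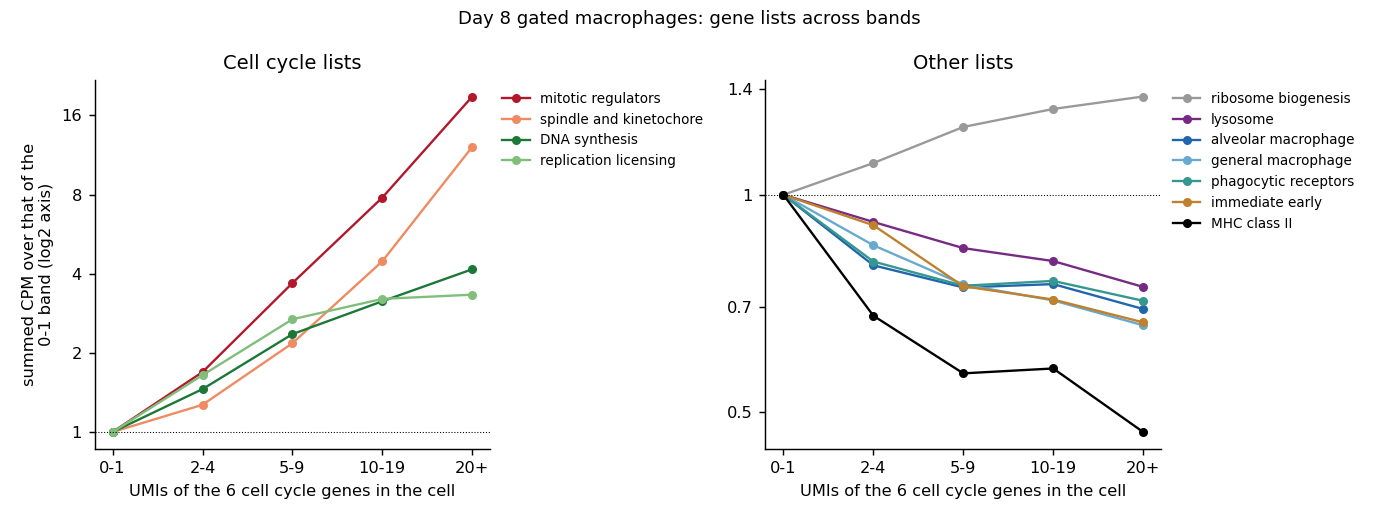
Summed CPM of gene lists relative to the 0-1 band (y axis, log2 axis) across 5 bands of UMIs of the 6 cell cycle genes (x axis), cell cycle lists left and other lists right. Licensing levels off at 966 to 1002 CPM while mitotic regulators reach 1986 CPM, and MHC class II genes end at 94.8 CPM against 202 CPM in the lowest band.

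The same gate and threshold gave 112 cycling of 2369 gated cells at day 0, 2588 of 6440 at day 8, 310 of 5962 at day 13 and 537 of 5290 at day 20. These were 4.73, 40.2, 5.20 and 10.2%, and median depths of gated cells were 3529, 17054, 7897 and 10484 UMIs. With every cell thinned to 2000 UMIs and at least 2 UMIs asked for, the shares were 7.38, 27.3, 4.44 and 7.58%. With a threshold of 0.03% of a cell's UMIs they were 12.3, 39.2, 8.86 and 12.4%. Day 8 had the highest share under each of these 3 measures, while the order of the other days changed with the measure. All 3 measures count the same cell cycle genes that chose the members, so they are not independent. The day 8 cells were chosen with earlier results of these data known. The intervals of these shares hold counting error alone and no spread between libraries, so they cannot test a difference between days. Each day is 1 library, so day and library cannot be told apart.

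Within each other library the same contrast was made, on cells that the choice of the day 8 cells did not use. The same cell cycle genes split cycling from non-cycling cells there. The counts of genes called again are therefore not independent of that rule, and describe what came with its genes in each library. At day 0, 439 of 6733 genes (6.52%) were higher and 199 (2.96%) lower, at day 13, 527 of 5848 (9.01%) and 145 (2.48%), and at day 20, 504 of 6151 (8.19%) and 127 (2.06%). Of the 162 genes outside the cell cycle lists that were higher at day 8, 106 of 146 measured at day 0, 125 of 144 at day 13 and 126 of 152 at day 20 were higher too. Of the 40 lower ones, 10 of 38, 12 of 27 and 14 of 23 were lower too, and no gene in either group had the opposite call. With depth weighting the lower counts were 1 of 38, 9 of 28 and 8 of 22, so the day 0 count nearly vanished. Cycling cells were deeper at each of these days, with median depths of 12576, 14160 and 17085 UMIs, against 3210, 7521 and 9708 UMIs in non-cycling cells.

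Single lower genes differed in how they came back. Ms4a7 had log2 ratios of 0.48, -1.23, -1.21 and -1.13 at days 0, 8, 13 and 20, and Cd300c2 -0.81, -1.28, -1.23 and -1.68. Mgll had -1.02, -1.72, -0.84 and -1.72, and Atp6v0d2 -1.11, -1.39 and -1.96 at days 0, 8 and 20, while at day 13 it narrowly missed the 2-fold rule. Ccnd2 had -0.58, -1.35, 0.06 and -0.20, so it was called lower at day 8 alone, while Ccnd1 had -0.25, 0.16, 1.33 and 0.59 and was called higher at day 13. No difference between days was tested. Cells at other days differ in makeup as well. Cycling gated cells gave at least 0.1% of UMIs to fibroblast genes in 2.68, 2.36, 24.2 and 29.2% of cells at days 0, 8, 13 and 20. At day 0 the neutrophil list summed to 11550 CPM in cycling and 9927 CPM in non-cycling cells, and the T and NK list to 3252 and 1257 CPM, and the source of these UMIs was not tested. With cells at or above that 0.1% left out, 9 of 28 and 11 of 22 lower genes were lower too at days 13 and 20.

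**Figure D5:**
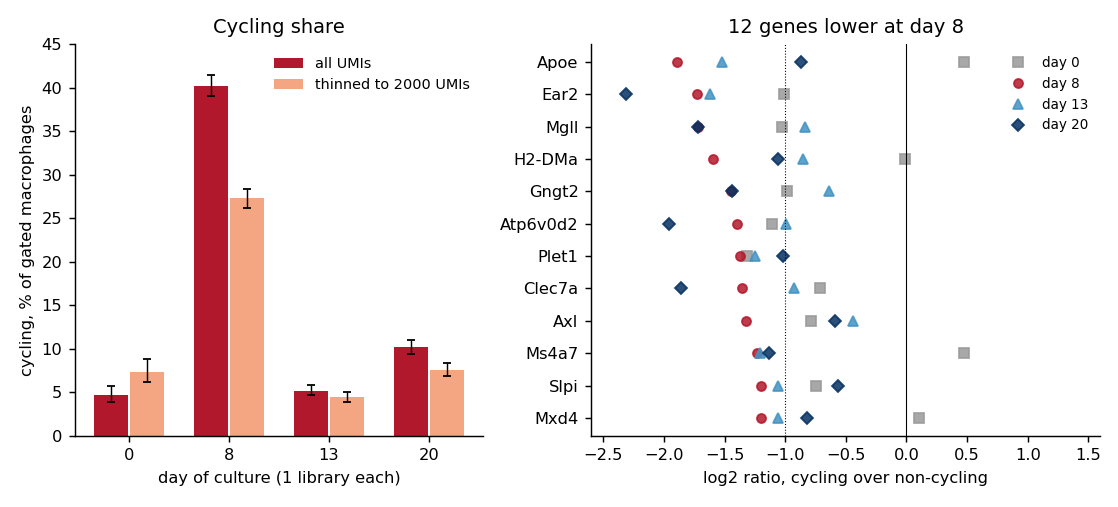
Left, share of gated macrophages that were cycling (y axis, percent, bars with exact 95% counting intervals) at days 0, 8, 13 and 20 with all UMIs and after thinning to 2000 UMIs, highest at day 8 with 40.2 and 27.3%. Right, log2 ratio of cycling over non-cycling cells (x axis) for 12 genes lower at day 8, 1 marker a day, with Apoe and Ms4a7 at 0.48 at day 0.

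Macrophages were not the only cycling cells of day 8. The same 6-gene threshold marked 161 of 565 Epcam-positive cells (28.5%, interval 24.8 to 32.4%) and 7 of 152 fibroblast-gene cells (4.61%, interval 1.87 to 9.26%), against 40.2% of gated macrophages. Thinned to 5000 UMIs with at least 3 UMIs asked for, the shares were 32.1% of macrophages, 24.4% of Epcam-positive and 6.38% of fibroblast-gene cells. Among cells removed from the gate for Epcam, 125 of 280 held 5 or more UMIs of the 6 genes. Macrophages thus had the highest share of the 3 under both measures.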

How the data were processed

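Droplet single-cell RNA-seq of 4 libraries, 1 a day, was used. Each cell value is a raw UMI count per gene and barcode, deposited by the authors; the submitters' processing notes name Cell Ranger 7.0.1 and mm10. Handling of free RNA and doublets is not given in the sources used here. The labels name nuclear RNA as the molecule. UMIs of 22547 features were summed over cells of a set and divided by the set's total as CPM. Ratios carry exact conditional Poisson intervals and shares Clopper-Pearson intervals, at 95%; a side under 3 UMIs was set to 3. Calls need 2-fold, 20 CPM in the larger set and an interval off 1. Depth weighting gave non-cycling cells the depth distribution of cycling cells in bins of 0.1 log10 UMIs.

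The members, the 48 gene lists and the tests were chosen with earlier results of these data known. List counts use genes with at least 5 CPM, calls those with at least 20 CPM. Named genes are the 15 largest ratios in each direction with at least 50 CPM, in all and outside the cell cycle lists, up to 4 a list with at least 20 CPM, and key genes. Predicted models, Xist and genes on Y, and those of mitochondria, ribosomal proteins, haemoglobin and immunoglobulin were excluded, Ighm being given as a marker alone. Aurka, Mcm6, Hells, Cdkn1c, Cdkn2a, Spi1, E2f7, Ccne2, E2f2, Acp5, Ctsf, Pla2g7 and Tcp11l2 were named after their values were seen. The ratio rule recovered known changes in simulated counts. Doublets were kept, and Scrublet in Scanpy 1.11.5 gave the alternative without 719 of 7893 cells, since its own threshold marked 3.23%. Some genes are not reported here. Promoters are the first window listed per gene. Python 3.11.15, numpy 2.4.6, scipy 1.17.1 and pandas 2.3.3 were used.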

Additional observations from a re-analysis of the deposited data

Results flagged for a closer look

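In the genes below the ratio of cycling over non-cycling macrophages had opposite signs on a pair of days; the difference was not tested. S100a8, a neutrophil alarmin, had a log2 ratio of 5.59 at day 13 (178 CPM in cycling and 3.70 CPM in non-cycling cells) and -0.74 at day 8, and 968 of its 974 UMIs in the day 13 cycling cells came from 5 of 310 cells. Sparc, a fibroblast gene, had -0.73 at day 0 (36.1 CPM in cycling and 59.7 CPM in non-cycling cells) and 0.78 at day 8, where depth weighting gave -0.83, the same sign as at day 0, and 49 of its 58 UMIs in the day 0 cycling cells came from 5 of 112 cells.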

How the results depend on the processing

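No paired analysis was possible because each day has 1 library. Intervals cover counting error only. The day 8 cycling share was 52.5% with at least 3 UMIs, 30.2% with at least 10, 32.1% after thinning to 5000 UMIs and 37.6% without doublets. Higher and lower genes numbered 569 and 177 at 1.5-fold, 178 and 5 at 3-fold, 521 and 84 with at least 5 CPM, and 75 and 8 with at least 100 CPM; depth weighting left 19 lower genes, with 56 cycling cells left out for want of a match. Removing doublets gave 310 higher and 43 lower genes. The limit to cells of 15000 to 20000 UMIs, and gene counts at other days without cells at or above 0.1% of UMIs from the fibroblast list, were added after seeing the data. At other days the share was 7.38% (day 0), 4.44% (day 13) and 7.58% (day 20) after thinning, 12.3, 8.86 and 12.4% with a threshold of 0.03% of UMIs, and 4.28% (day 13) and 8.61% (day 20) without cells at that 0.1%. At 1.5-fold the counts were 876 and 777 at day 0, 1045 and 741 at day 13 and 992 and 748 at day 20. Depth weighting gave 87 lower genes at day 0, and 309 and 323 higher genes at days 13 and 20. Without those cells 83 and 61 genes were lower at days 13 and 20. Depth weighting turned the fibroblast gene Dcn, not called at a log2 ratio of 0.38, to a lower call at -1.23. It also turned the sign, with no call, of Sparc (0.78 to -0.83), Col1a2 (0.73 to -0.77), Col1a1 (0.68 to -0.77), Col3a1 (0.35 to -0.69), Plac8 (0.17 to -0.59), Ccnd1 (0.16 to -0.08) and Maf (0.04 to -0.05), among others; the cause was not tested. Scaling by the median ratio moved all log2 ratios by -0.06.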
